A study of Macaca mulatta with 25 samples.

Results

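Blastocysts of rhesus macaques were ordered by the transcripts of their primitive endoderm, and the 8 highest scoring libraries were compared with the 8 lowest. The score was the mean of log2(CPM + 1) of SOX17, GATA4, PDGFRA and FOXA2, where CPM is the count of a gene per 1000000 counts of its library. Only libraries with less than 20 CPM of CGA, the alpha subunit of chorionic gonadotropin, were ordered. These were 21 of the 25 libraries of the series, so 16 libraries are compared, 5 lie between the sides and 4 are outside the rule. The sides were therefore set by measured values and not by a treatment, and the 4 score genes and CGA are described without a test.

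The primitive endoderm, or hypoblast, is the inner layer of extra-embryonic endoderm that faces the blastocyst cavity and later lines the yolk sac. It separates from the epiblast within the inner cell mass. In the mouse, FGF4 from epiblast precursors acts through FGF receptors on GATA6-positive cells, which then switch on GATA4 and SOX17 and lay down a basement membrane of laminin, collagen IV and nidogen. Its derivative, the visceral endoderm, takes up and secretes lipoproteins and other nutrients and sends BMP and NODAL-antagonist signals to the epiblast.

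The females whose eggs were used started treatment at about 2.5 years of age, before puberty, with 10 females per group. The T group received testosterone implants and a standard chow with 15% fat. The WSD group received a Western-style diet with 36% fat, and the TWSD group received testosterone implants with that diet. The control group C received cholesterol implants and the chow. Ovaries were stimulated after 5 to 6 years in 7 T, 6 WSD, 3 TWSD and 10 C females, the eggs were joined in vitro with sperm of 4 males, and embryos grew for up to 8 days. The series held 10 T, 8 WSD, 2 TWSD and 5 C libraries. The labels do not tie a library to a mother, a father or a culture day, so embryos may share parents. The p-values therefore speak of the spread among the libraries, not among females.

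CGA was at most 4.35 CPM in the 21 ordered libraries and at least 755 CPM in the other 4 (C 8, C 11, C 12 and T 1), so the limit of 20 CPM fell in a wide gap. Scores ran from 5.67 to 6.29 (median 6.14) in the high-scoring libraries and from 1.52 to 4.92 (median 4.22) in the low-scoring libraries. At the upper border TWSD 3 scored 5.67 and was counted as high, and WSD 7 at 5.62 was not. At the lower border T 8 scored 4.92 and was counted as low, and WSD 1 at 4.93 was not. Both borders thus separate close neighbours. At the low end the order was broken, with C 1 at 2.41 and TWSD 2 at 1.52 below T 6 at 3.97.

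FOXA2, a pioneer factor of endoderm, ran from 7.23 to 33.8 CPM (median 17.8) in high-scoring libraries and from 0 to 3.44 CPM (median 0.837) in low-scoring ones. GATA4, a zinc-finger factor of the maturing primitive endoderm, ran from 46.5 to 97.0 CPM (median 63.4) in high-scoring and from 0.124 to 38.4 CPM (median 11.5) in low-scoring libraries. SOX17, an HMG-box factor needed for endoderm, ran from 72.4 to 236 CPM (median 99.0) in high-scoring and from 0.147 to 68.4 CPM (median 37.5) in low-scoring libraries. C 1 and TWSD 2 stood lowest in SOX17 (3.77 and 0.147 CPM) and in GATA4 (0.124 and 0.343 CPM), and FOXA2 had no count in either, nor in T 6. The other 6 low-scoring libraries held 20.6 to 68.4 CPM of SOX17, so SOX17 was lower there and not missing. PDGFRA, a receptor tyrosine kinase, differed less between the sides, with 133 to 175 CPM (median 151) in high-scoring and 42.8 to 167 CPM (median 139) in low-scoring libraries. Over the 21 libraries, r on the log2(CPM + 1) scale was 0.88 between SOX17 and GATA4, 0.84 between GATA4 and FOXA2, and 0.70 between SOX17 and FOXA2. With PDGFRA it was 0.68 for SOX17, 0.495 for GATA4 and 0.42 for FOXA2. These are descriptions of libraries that share 1 count table.

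**Figure D1:**
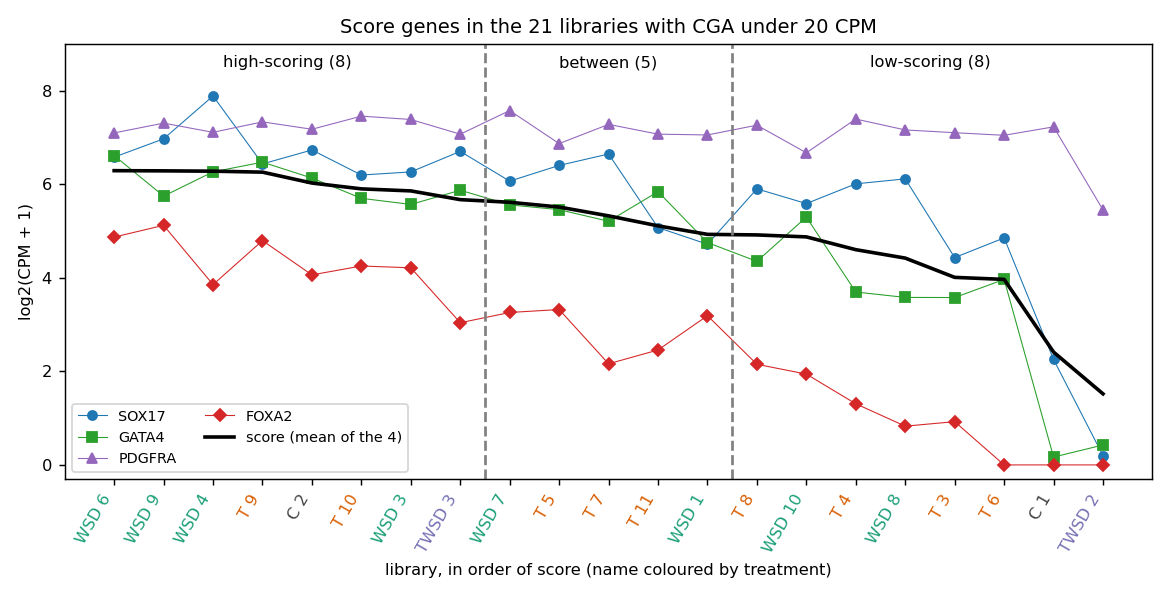
Level of each score gene and of their mean, in log2(CPM + 1), for the 21 ordered libraries from the highest to the lowest score, with library names coloured by treatment (T orange, WSD green, TWSD purple, C dark grey). FOXA2 is at 0 in the 3 lowest libraries, PDGFRA stays near 7 in all libraries but TWSD 2, and C 1 and TWSD 2 lie far below the rest.

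Every treatment was found on both sides. Of 9 T libraries 2 were high-scoring, 3 in between and 4 low-scoring, with scores of 3.97 to 6.26 (median 5.11). Of 8 WSD libraries 4 were high-scoring, 2 in between and 2 low-scoring, with scores of 4.42 to 6.29 (median 5.74). TWSD 3 was high-scoring (5.67) and TWSD 2 had the lowest score of all (1.52). Likewise C 2 was high-scoring (6.03), and C 1 had the second lowest score (2.41). No test was made of how treatments fall, since the sides come from a readout.

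Total counts ran from 15272016 to 28973971 in high-scoring and from 15391037 to 35544542 in low-scoring libraries. Genes with at least 1 count numbered 14247 to 21037 in high-scoring and 15543 to 19072 in low-scoring libraries. Mean totals differed by 452191 counts and mean numbers of genes by -516 (high less low), less than the spread in either (two-sided exact permutation p = 0.884 and 0.568, adjusted p = 0.884 for both, n = 8 each). DDX3Y, a gene of the Y chromosome, was above 100 CPM in 5 of 8 high-scoring and 5 of 8 low-scoring libraries. Reads were taken from whole blastocysts, where fewer cells of a type and less RNA per cell cannot be told apart.

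Of 13279 genes tested (1 CPM or more in 5 or more of the 21 libraries), 33 rose and 36 fell in high-scoring libraries, which is 0.249% and 0.271% of them, or 0.52% in either direction. The test was edgeR's quasi-likelihood test, with p adjusted over all genes by Benjamini-Hochberg. At an unadjusted p under 0.05 the shares were 7.69% higher and 7.43% lower. As the sides were set by a readout, a call says only that a gene moved with the score in these libraries. Those that rose included the bone morphogenetic protein BMP2, its target ID2, the collagen IV cross-linking enzyme PXDN and a run of enzymes of sterol synthesis. Those that fell included the homeobox gene DPRX, a gene of early embryos, and the mitochondrial fusion gene MFN1. All adjusted p lay between 0.038 and 0.050, close to the threshold. The median log2 change was 1.44 for genes that rose and -1.67 for genes that fell, and 1.44 and -1.67 with the 1 and 0 genes without a count on a whole side set to their lower bound, from 3 counts over that side. Log2 changes are high over low, with their standard error (SE), and those below come from the same fit. With treatment as a term no gene passed (smallest adjusted p = 0.0527, with 1106 higher and 771 lower at an unadjusted p under 0.05), whereas DESeq2 without that term called 386 and 257 (2.91% and 1.94%) and limma voom with quality weights 454 and 257 (3.42% and 1.94%). Left out in turn, 12 of the 16 libraries ended every call. Without WSD 10, a low-scoring library, 253 genes were higher and 166 lower (1.91% and 1.25%). Of 31 tested lineage genes that are named whether or not they passed, 12 then passed that did not with all 16 libraries. WSD 10 was singled out after its values were seen. It was the low-scoring library nearest the high-scoring side in 24 of the 33 genes that rose and 27 of the 36 that fell. Passes without WSD 10, here and below, are therefore descriptions and give a gene no added support.

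Other transcription factors of the primitive endoderm did not follow the score as a group. Of 11 tested factors other than the score genes 0 rose and 0 fell, with 6 above and 5 below 0 and a median log2 change of 0.15, beside -0.03 over all genes tested. At an unadjusted p under 0.05 there were 0 higher and 1 lower among them. GATA6, which acts before GATA4 in this lineage in the mouse, had 131 to 482 CPM (median 206) in high-scoring and 37.0 to 607 CPM (median 428) in low-scoring libraries. The sides of GATA6 overlapped widely and its change did not pass (-0.51 ± 0.38 SE, adjusted p = 0.582). HNF4A, a nuclear receptor of visceral endoderm, had medians of 37.1 and 35.2 CPM in high- and low-scoring libraries, and OTX2, a homeobox factor of anterior visceral endoderm, had 32.0 and 50.1 CPM (adjusted p = 0.920 and 0.692).

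Of 22 tested basement membrane genes 1 rose and 0 fell, beside 0.249% and 0.271% over all genes. Their median log2 change was 0.54, beside -0.03 over all genes, with 19 above 0 and 3 below. PXDN, the peroxidasin that links collagen IV molecules, had 8.32 to 74.9 CPM (median 27.2) in high-scoring and 0.294 to 10.3 CPM (median 2.701) in low-scoring libraries, a log2 change of 3.20 ± 0.62 SE (adjusted p = 0.038). NID2, a nidogen that ties laminin to collagen IV, had 527 to 1404 CPM (median 744) in high-scoring and 8.16 to 653 CPM (median 104) in low-scoring libraries. Of the low-scoring libraries only WSD 10 reached the high-scoring range of NID2, the next being at 199 CPM (2.36 ± 0.57 SE, adjusted p = 0.0651, and 3.19 and 0.00205 without WSD 10). Fibronectin, FN1, had medians of 72.1 and 2.59 CPM in high- and low-scoring libraries (3.63 ± 0.95 SE, adjusted p = 0.0733, and 0.00386 without WSD 10). With all libraries, NID2 and FN1 passed in DESeq2 (adjusted p = 0.00606 and 0.0041) and in limma voom (0.00535 and 0.0359).

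The collagen IV chains COL4A1 and COL4A2 had medians of 84.7 and 195 CPM in high-scoring libraries, against 6.71 and 42.5 CPM in low-scoring ones. COL4A1 overlapped through WSD 10 alone, at 138 CPM, and COL4A2 through WSD 10 and T 8, at 196 and 149 CPM (adjusted p = 0.242 and 0.235). Without WSD 10 the change of COL4A1 was 3.17, against 2.02 with it, and passed (adjusted p = 0.0301). With all libraries, COL4A1 and COL4A2 passed in limma voom (adjusted p = 0.01245 and 0.0198) and not in DESeq2 (0.149 and 0.144). The laminin chains LAMB1 and LAMC1 differed less, with medians of 583 and 492 CPM in high-scoring and 376 and 360 CPM in low-scoring libraries (adjusted p = 0.248 and 0.394). Summed over 22 matched members, the list held 2738 to 5085 CPM in high-scoring and 805 to 3284 CPM in low-scoring libraries. DESeq2 and limma voom with quality weights called 5 and 9 of these genes, all higher.

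Genes for uptake and secretion by visceral endoderm had 0 of 16 tested members past the threshold in either direction, with a median log2 change of 0.56. DESeq2 and limma voom with quality weights each called 4 of them, all higher. APOA1, the main protein of high-density lipoprotein, had 1252 to 3782 CPM (median 2206) in high-scoring and 14.2 to 1340 CPM (median 437) in low-scoring libraries. The overlap was again through WSD 10, the next low-scoring library being at 799 CPM (2.17 ± 0.56 SE). APOA1 did not pass in edgeR with all libraries (adjusted p = 0.0712), and passed without WSD 10 (0.0198), in DESeq2 (0.00961) and in limma voom (0.0065). The endocytic receptor LRP2 and its adaptor DAB2, which the trophectoderm also makes, had medians of 584 and 967 CPM in high-scoring and 248 and 443 CPM in low-scoring libraries (adjusted p = 0.185 and 0.152, and 0.0491 and 0.0214 without WSD 10). With all libraries, both passed in limma voom (adjusted p = 0.0252 and 0.0148). In DESeq2 DAB2 passed (0.0497) and LRP2 did not (0.0652). APOE, another apolipoprotein, had medians of 124 and 132 CPM in high- and low-scoring libraries (adjusted p = 0.565). TTR and CUBN, a thyroid hormone carrier and an endocytic receptor of later visceral endoderm, had medians under 1 CPM on both sides.

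Among signals, 2 of 20 tested genes of the NODAL, BMP and WNT pathways rose and 0 fell, beside 0.249% and 0.271% over all genes, with 17 above 0 and a median log2 change of 1.23. DESeq2 and limma voom with quality weights each called 6 of them, all higher. BMP2, a ligand that visceral endoderm makes in the mouse, had 15.6 to 91.9 CPM (median 23.4) in high-scoring and 0 to 11.8 CPM (median 0.852) in low-scoring libraries. Its sides did not overlap, as for 0.188% of all genes tested in that direction. WSD 10 was the low-scoring library nearest to the others, and the rest of that side had at most 2.02 CPM (3.90 ± 0.86 SE, adjusted p = 0.0487). ID2, a helix-loop-helix inhibitor that BMP signals switch on, had 7.53 to 334 CPM (median 45.4) in high-scoring and 0.491 to 21.7 CPM (median 3.01) in low-scoring libraries (3.93 ± 0.79 SE, adjusted p = 0.038). BMP6, a related ligand, did not overlap either, with 5.92 to 19.4 CPM in high-scoring and 0.0618 to 3.91 CPM in low-scoring libraries, but did not pass in edgeR (2.65 ± 0.69 SE, adjusted p = 0.0733, and 0.0360 without WSD 10). With all libraries, BMP6 passed in DESeq2 (adjusted p = 0.00188) and in limma voom (0.00869).

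The WNT agonist RSPO3 had 4.66 to 58.3 CPM in high-scoring libraries, against 25.6 CPM in WSD 10 and at most 0.949 CPM in the other low-scoring ones. The log2 change of RSPO3 was 3.15 ± 1.14 SE (adjusted p = 0.188), and without WSD 10 it was 6.49 and passed (adjusted p = 0.00177). With all libraries, RSPO3 passed in limma voom (adjusted p = 0.0169) and not in DESeq2 (0.0761). The WNT antagonist FRZB was uneven among high-scoring libraries, from 0.140 to 70.6 CPM, with at most 1.89 CPM in low-scoring ones (adjusted p = 0.0762). With all libraries, FRZB passed in DESeq2 (adjusted p = 0.000522) and not in limma voom (0.266). NODAL and its antagonist LEFTY2 were low on both sides, with medians of 6.43 and 1.75 CPM in high-scoring and 3.41 and 0.267 CPM in low-scoring libraries (adjusted p = 0.683 and 0.726). CER1, an antagonist of NODAL made by anterior visceral endoderm, was at 15.6 CPM in WSD 3 and at 0 in the other 7 high-scoring libraries, with at most 0.106 CPM in low-scoring ones, and was not tested.

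Of 17 tested genes of FGF and PDGF signalling 0 rose and 0 fell, with a median log2 change of 0.12. At an unadjusted p under 0.05, 5 were higher and 2 lower, beside 7.69% and 7.43% over all genes. FGFR2, a receptor of FGF4, had 29.7 to 137 CPM (median 70.4) in high-scoring and 43.4 to 233 CPM (median 180) in low-scoring libraries (-1.07 ± 0.35 SE, adjusted p = 0.155). FGF4 itself overlapped throughout, with medians of 16.55 and 13.2 CPM in high- and low-scoring libraries (adjusted p = 0.761). FGFR2 did not pass in DESeq2 (adjusted p = 0.0583), and passed as lower in limma voom with quality weights (0.0201) and in edgeR without WSD 10 (0.0419). Of the list, DESeq2 called 1 gene higher and 0 lower, and limma voom 1 higher and 1 lower.

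**Figure D2:**
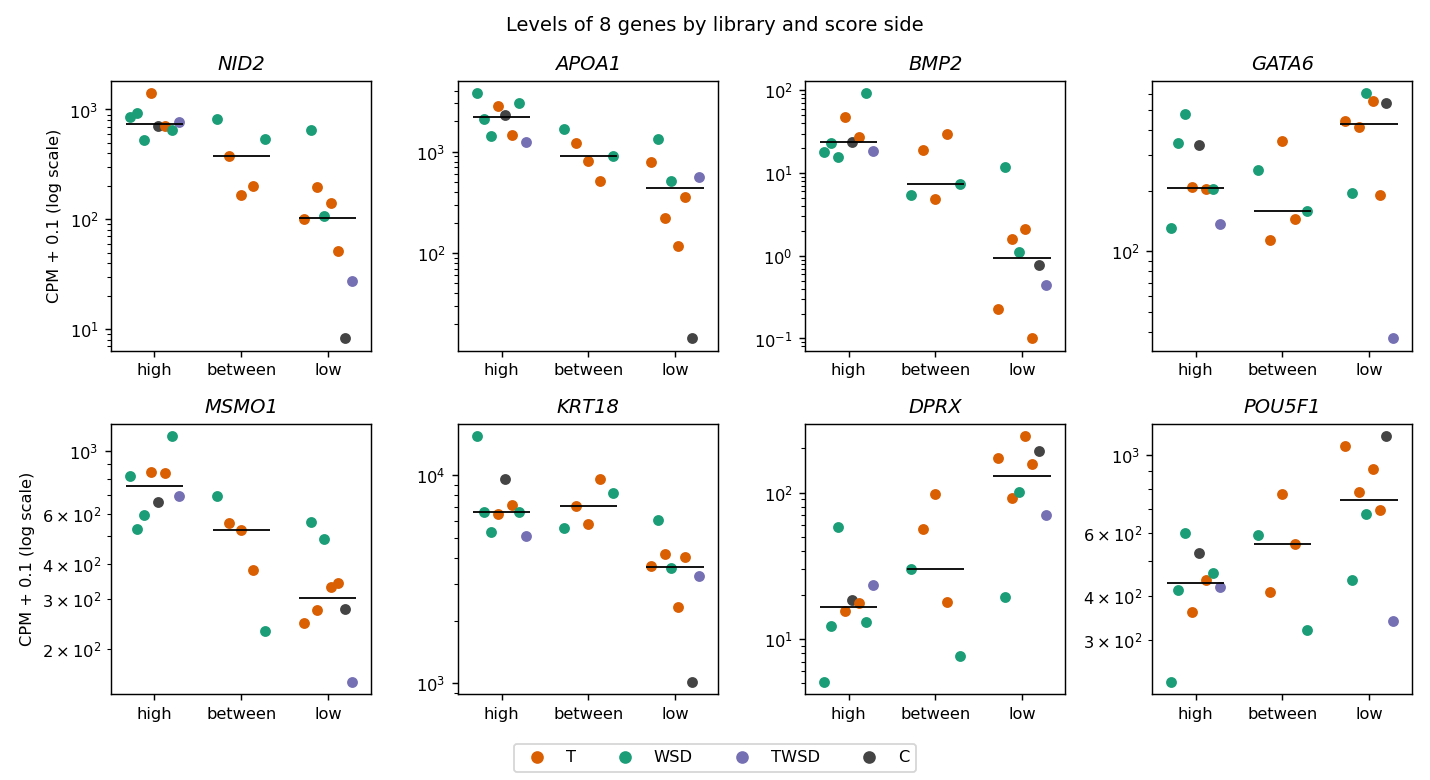
CPM + 0.1 on a log axis of 8 genes in the 8 high-scoring libraries, the 5 in between and the 8 low-scoring ones, each point a library coloured by treatment and each line the median. NID2, APOA1, BMP2, MSMO1 and KRT18 have higher medians in high-scoring libraries, GATA6, DPRX and POU5F1 have lower ones, and WSD 10 is the low-scoring point nearest to the high-scoring side for NID2, APOA1, BMP2, MSMO1, KRT18 and DPRX.

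Several genes of sterol synthesis rose. Of 23 tested genes of cholesterol synthesis and lipoprotein uptake 4 rose and 0 fell, beside 0.249% and 0.271% over all genes, with 22 above 0 and a median log2 change of 0.72. INSIG1, which holds the sterol sensor in the endoplasmic reticulum, had 257 to 855 CPM (median 369) in high-scoring and 43.4 to 318 CPM (median 114) in low-scoring libraries (1.81 ± 0.37 SE, adjusted p = 0.0403). FDFT1, the squalene synthase, had 777 to 2080 CPM (median 1259) in high-scoring and 489 to 862 CPM (median 625) in low-scoring libraries (0.96 ± 0.20 SE, adjusted p = 0.0435). MVD, which makes isopentenyl diphosphate, had 377 to 820 CPM (median 549) in high-scoring and 55.3 to 375 CPM (median 199) in low-scoring libraries, with no overlap (1.31 ± 0.28 SE, adjusted p = 0.0463).

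The fourth, the isomerase IDI1, had medians of 215 and 101 CPM in high- and low-scoring libraries (0.93 ± 0.20 SE, adjusted p = 0.0435). MSMO1, a sterol demethylating oxidase outside the list, was among the genes of smallest p, with 529 to 1125 CPM (median 756) in high-scoring and 154 to 560 CPM (median 304) in low-scoring libraries (1.18 ± 0.22 SE, adjusted p = 0.038). Only WSD 10, at 560 CPM, entered the high-scoring range of MSMO1. Also risen, and named after their values were seen, were ELOVL6, which lengthens fatty acids (1.10), and IDH1, which makes NADPH in the cytosol (1.33). The list median was 1.01 in T libraries alone and 0.21 in WSD libraries alone.

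Other leading genes that rose came from several settings. SPP1, the secreted protein osteopontin, had 3.89 to 81.4 CPM (median 22.8) in high-scoring and 0.0353 to 4.11 CPM (median 1.30) in low-scoring libraries (4.29 ± 0.78 SE). BIRC3, an inhibitor of apoptosis, had 1.72 to 20.4 CPM in high-scoring libraries and at most 0.589 CPM in low-scoring ones (5.26 ± 1.06 SE). KCNK1, a potassium channel, was uneven, with 0 to 15.7 CPM in high-scoring and at most 0.0618 CPM in low-scoring libraries, too few reads for a fold. The thiamine transporter SLC19A2 (2.38 ± 0.44 SE), the microsomal glutathione transferase MGST1 (3.00 ± 0.56 SE), the membrane protein ITM2C (1.69 ± 0.33 SE), KIAA0040 (1.96 ± 0.37 SE) and the nuclear lamina gene LMNA (1.198 ± 0.24 SE) also rose. All of these had an adjusted p of 0.038, and limma voom with quality weights, unlike edgeR, did not call KCNK1 (adjusted p = 0.0756).

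Changes of trophectoderm markers were mostly above 0. Of 26 tested genes of this outer layer 0 rose and 0 fell, with 23 above 0 and a median log2 change of 1.02, which was 0.84 in T libraries alone and 0.27 in WSD libraries alone. At an unadjusted p under 0.05, 12 were higher and 1 lower, beside 7.69% and 7.43% over all genes. DESeq2 and limma voom with quality weights each called 7 higher and 1 lower. Summed over 29 matched members, the list held 10080 to 23260 CPM in high-scoring and 3866 to 11600 CPM in low-scoring libraries. The keratin KRT18 had 5112 to 15340 CPM (median 6662) in high-scoring and 1019 to 6115 CPM (median 3614) in low-scoring libraries (1.12 ± 0.30 SE, adjusted p = 0.0787, and 0.0302 without WSD 10). With all libraries, KRT18 passed in DESeq2 (adjusted p = 0.0112) and in limma voom (0.01495). The trophectoderm factors CDX2, GATA2 and GATA3 had medians of 178, 587 and 248 CPM in high-scoring and 86.0, 203 and 197 CPM in low-scoring libraries (adjusted p = 0.217, 0.247 and 0.240), and CDX2 passed without WSD 10 (0.0485). With all libraries, GATA2 passed in limma voom (adjusted p = 0.0322) and not in DESeq2 (0.112), and CDX2 and GATA3 passed in neither. KRT19 and HAND1, named after their values were seen, had medians of 1402 and 70.2 CPM in high-scoring and 149 and 29.5 CPM in low-scoring libraries (adjusted p = 0.0704 and 0.0642, and 0.00386 and 0.0268 without WSD 10). HAND1 was also far apart among high-scoring libraries, at 41.3 to 1461 CPM. The part of trophectoderm transcripts in the genes that moved with the score was not tested.

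Epiblast markers had a median log2 change of -0.14 over 23 tested genes, 0 of which rose or fell. POU5F1, the pluripotency factor OCT4, had 228 to 600 CPM (median 433) in high-scoring and 338 to 1125 CPM (median 742) in low-scoring libraries (-0.79 ± 0.21 SE, adjusted p = 0.0762). It passed as lower in edgeR without WSD 10 (0.0250) and without TWSD 2 (0.0372). With all libraries POU5F1 passed as lower in DESeq2 (adjusted p = 0.0158) and in limma voom with quality weights (0.00739). Of the list, DESeq2 called 1 gene higher and 2 lower, and limma voom 1 higher and 3 lower. NANOG, which marks the epiblast, had medians of 99.7 and 78.8 CPM in high- and low-scoring libraries and did not pass (adjusted p = 0.919). KLF17, a factor of the naive epiblast in primates, had medians of 3.55 and 8.89 CPM in high- and low-scoring libraries (adjusted p = 0.924). The sides overlapped in all 3.

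The genes that fell were led by SRPK2, a kinase of splicing factors, at 27.5 to 55.6 CPM (median 35.2) in high-scoring and 38.3 to 203 CPM (median 114) in low-scoring libraries (-1.65 ± 0.27 SE). DPRX, a PRD-class homeobox gene of early human embryos, had 5.00 to 58.5 CPM (median 16.5) in high-scoring and 19.2 to 241 CPM (median 129) in low-scoring libraries (-2.66 ± 0.46 SE). MFN1, which fuses mitochondria, had 87.0 to 225 CPM (median 123) in high-scoring and 144 to 448 CPM (median 348) in low-scoring libraries (-1.37 ± 0.25 SE). For all 3 the lowest of the low-scoring libraries was WSD 10, and without it no low-scoring library of these genes fell within the high-scoring range. DPYSL2, a microtubule regulator (-1.63 ± 0.32 SE), and PSRC1, a spindle protein (-0.89 ± 0.17 SE), had no overlap with WSD 10 included.

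Further genes that fell were the scaffold HOMER2 (-1.87 ± 0.33 SE), the phosphoinositide phosphatase MTMR14 (-1.50 ± 0.27 SE), PRPS1, which makes the sugar phosphate for nucleotides (-1.87 ± 0.37 SE), SAP25 (-1.96 ± 0.39 SE), TMEM92 (-2.61 ± 0.51 SE) and WDR73 (-1.28 ± 0.25 SE). PDCL3 (ENSMMUG00000040135) also fell (-1.45 ± 0.28 SE), as did another entry of that symbol (ENSMMUG00000046772, -1.68), between which reads may be split. All named above had an adjusted p of 0.038. Outside the naming rule, and chosen after their values were seen, were the ETS factor SPIC (-3.04 ± 0.61 SE), the translational repressor NANOS1 (-2.88), the phosphatase DUSP1 (-1.42) and PRAME (-2.21), a gene of the germ line and of tumours. SPIC had 2.00 to 60.7 CPM (median 14.5) in high-scoring and 30.8 to 323 CPM (median 191) in low-scoring libraries.

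**Figure D3:**
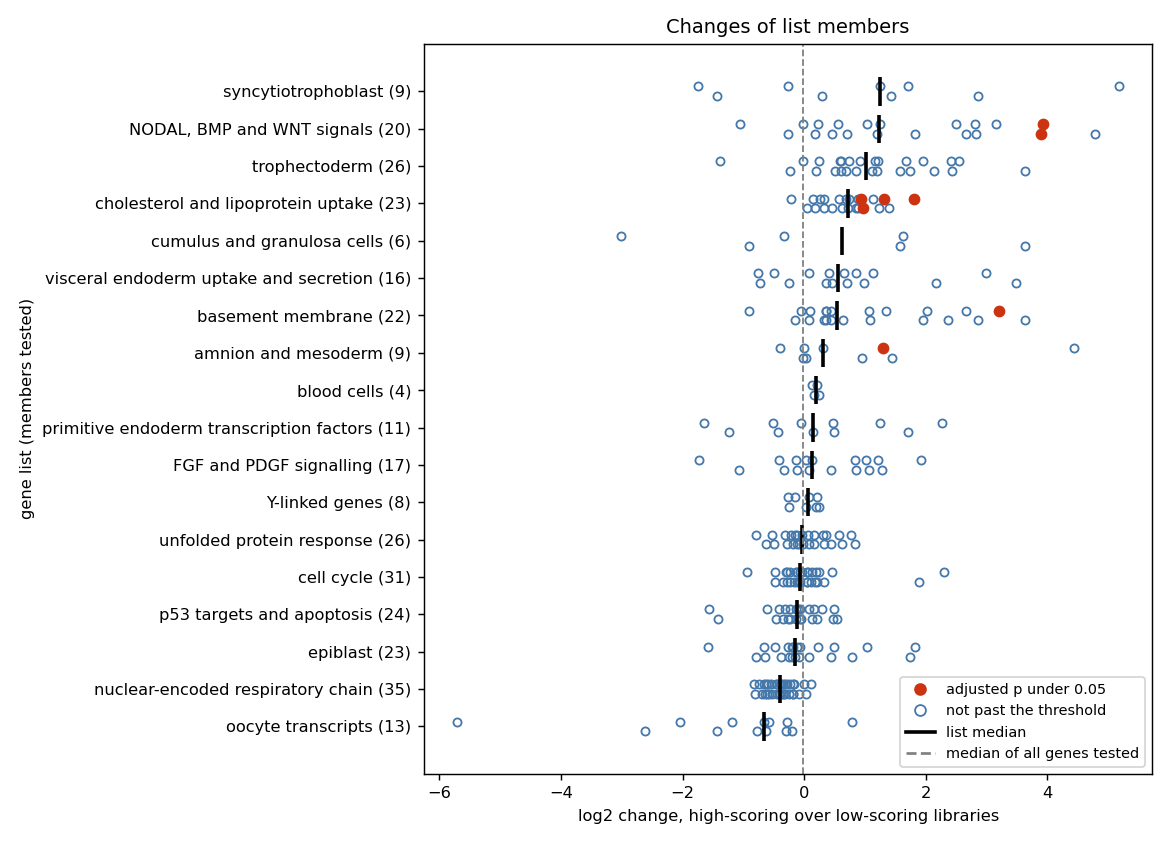
Log2 change, high-scoring over low-scoring libraries, of each tested member of the lists with at least 4 tested members, with members past the threshold filled, list medians as bars and the median of all genes tested as a dashed line. Filled points are few (4 in cholesterol, 2 in NODAL, BMP and WNT signals, 1 in basement membrane, 1 in amnion and mesoderm), and the medians furthest right of that of all genes (-0.03) are those of the syncytiotrophoblast (1.24), NODAL, BMP and WNT (1.23), trophectoderm (1.02) and cholesterol (0.72) lists. The syncytiotrophoblast list has 9 tested members, and its median was 0.23 in T libraries alone and 0.92 in WSD libraries alone.

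In the remaining lists 1 gene rose and 0 fell. It was CDH2, N-cadherin, 1 of 9 tested genes of amnion and mesoderm, with 44.1 to 115 CPM (median 68.7) in high-scoring and 14.9 to 55.6 CPM (median 24.9) in low-scoring libraries (1.30 ± 0.29 SE, adjusted p = 0.0487). The 9 tested syncytiotrophoblast genes had a median log2 change of 1.24. Summed over 12 matched genes, that list held 104 to 632 CPM in high-scoring and 45.5 to 238 CPM in low-scoring libraries. Changes of oocyte transcripts were mostly below 0, with 12 of 13 tested genes below 0 and a median of -0.66. Sums over 18 matched oocyte genes were 7248 to 15150 CPM in high-scoring and 8757 to 13090 CPM in low-scoring libraries. Nuclear-encoded genes of the respiratory chain had 33 of 35 below 0 and a median of -0.39. In WSD libraries alone the respiratory chain median was 0.04, on the other side of 0. Genes of the unfolded protein response (26 tested), of p53 and apoptosis (24) and of the cell cycle (31) had medians of -0.03, -0.12 and -0.06.

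Markers of cells that could be carried along had 0 genes past the threshold in edgeR. The 6 tested cumulus and granulosa genes had a median of 0.62. Their summed level over 13 matched genes was 155 to 350 CPM (median 288.5) in high-scoring and 77.9 to 936 CPM (median 490) in low-scoring libraries. DESeq2 and limma voom each called 1 of these genes higher and 0 lower, and at an unadjusted p under 0.05 in edgeR 1 was higher and 2 lower. The 4 tested blood genes had a median of 0.19, with sums over 9 matched genes of 27.4 to 72.8 CPM and 2.65 to 67.3 CPM in high- and low-scoring libraries. Of 9 matched sperm genes 7 were under 1 CPM in all 16 libraries, 2 of them at 0, and 1 was tested (0.21). The 8 tested Y-linked genes had a median of 0.06. Their part in the results was not tested.

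By pattern over the 21 libraries, the genes most like the score in log2(CPM + 1) were MPEG1 (r = 0.92), LARGE2 (0.91), FKBP9 (0.90), ACSS2 (0.90), SLCO2B1 (0.90), PIP4K2A (0.90), SPIRE2 (0.90), NID2 (0.90), COLEC12 (0.89) and GRB7 (0.89). These points share C 1 and TWSD 2 as extremes, and over the other 19 libraries r was 0.62 (GRB7) to 0.83 (NID2). ACSS2, which makes acetyl-CoA from acetate, had 90.2 to 210 CPM (median 109) in high-scoring and 1.13 to 96.3 CPM (median 25.7) in low-scoring libraries. Of the 10 genes 0 passed in the comparison of sides (adjusted p of 0.0622 to 0.414), and 8 did without WSD 10. Without WSD 10, 1.91% of all genes tested were higher and 1.25% lower. The 10 genes were chosen by their r with the score that set the sides, so these counts are descriptions and no test of them.

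WSD 10 was placed low by its score of 4.88 but lay closer to the high-scoring libraries than the rest of its side in the called genes. Its mean log2(CPM + 1) was 5.74 over the genes that rose, below every high-scoring library (lowest 6.04, WSD 4). Over the genes that fell it was 5.82. Both values lay within the ranges of the libraries in between (5.25 to 6.61 and 5.40 to 6.69). WSD 10 held the highest value of the low-scoring side in 24 of the 33 genes that rose and the lowest in 27 of the 36 that fell. The sides did not overlap in 5 of the 33 and 3 of the 36, and without WSD 10 in 25 and 26. Over all genes tested, the sides did not overlap in 0.188% with the high-scoring libraries above and 0.0377% with them below, and without WSD 10 in 1.09% and 0.482%. WSD 10 was singled out after its place in these genes was seen. The 5 libraries in between had a median between the medians of the sides in 25 of the 33 and 29 of the 36.

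**Figure D4:**
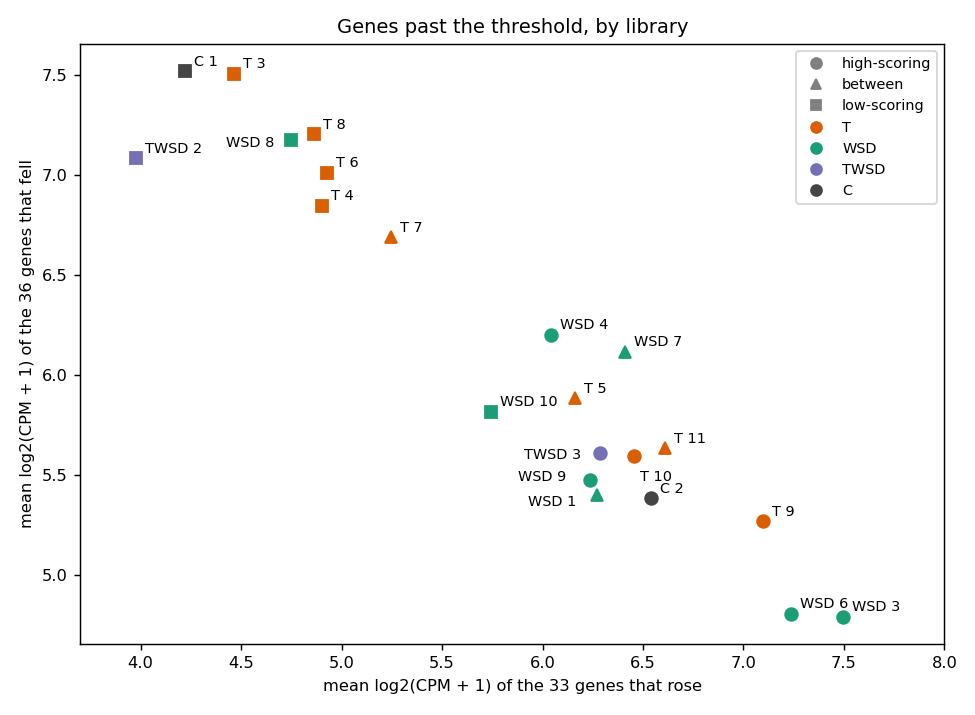
Mean log2(CPM + 1) of the 33 genes that rose against that of the 36 that fell, 1 point per library, with shape for the side and colour for the treatment. These genes were chosen in 16 of the libraries shown, so their separation is a description. WSD 10 (5.74 and 5.82) lies near T 5 of the libraries in between (6.163 and 5.885) and high-scoring WSD 4 (6.04 and 6.20), apart from the other low-scoring libraries.

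The calls rested on few libraries. Left out in turn, WSD 6, WSD 9, T 9, C 2, T 10 and WSD 3 of the high-scoring and T 8, T 4, WSD 8, T 3, T 6 and C 1 of the low-scoring libraries each ended all calls of edgeR's quasi-likelihood test, with smallest adjusted p from 0.0526 to 0.0940 and 1594 to 1981 genes at an unadjusted p under 0.05. Without TWSD 3 there were 20 genes higher and 16 lower, without WSD 4 72 and 57, without TWSD 2 113 and 80, and without WSD 10 253 and 166. In each of these 16 fits the 69 genes had the direction of the full comparison and an unadjusted p under 0.05, although they were chosen from largely the same libraries. Without C 1 and TWSD 2 together, the libraries lowest in SOX17 and GATA4, 0 genes passed (smallest adjusted p = 0.0579, 1123 higher and 835 lower unadjusted), and the medians of the 33 and the 36 genes were 1.31 and -1.41, beside 1.44 and -1.67.

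**Figure D5:**
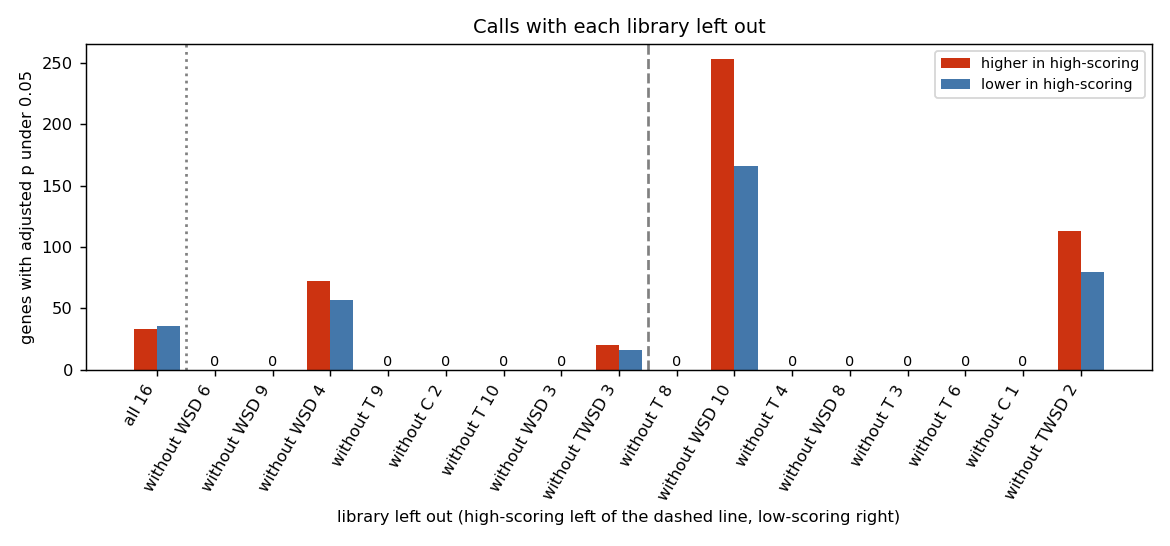
Number of genes past the threshold, higher (red) and lower (blue) in high-scoring libraries, with all 16 libraries and with each left out in turn. The 33 and 36 calls become 0 without any of 12 libraries and rise to 253 and 166 without WSD 10.

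Within treatments, 2 high-scoring against 4 low-scoring T libraries gave 43 genes higher and 8 lower, and 4 high-scoring against 2 low-scoring WSD libraries gave 0 and 0 by edgeR's quasi-likelihood test (339 and 179 unadjusted). C and TWSD had 1 library on each side and gave no test. The 33 genes had medians of 1.57 in T and 1.13 in WSD, and the 36 genes -1.50 and -1.16, where these libraries are part of those that chose the genes. The difference between T and WSD in the change was tested as an interaction, and 0 of 13279 genes passed (smallest adjusted p = 0.296), with 690, or 5.20%, at an unadjusted p under 0.05. That does not show that the change is alike under both treatments.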

How the data were processed

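RNA of 25 macaque blastocyst libraries was sequenced. The submitters' processing notes name FastQC 0.11.8, Trimmomatic 0.39 and STAR 2.7.0 and the build Mmul_10. The authors deposited raw read counts per gene, whole numbers without normalization (35395 genes, of which 24173 identifiers matched a symbol). Counting tool, annotation release and strand setting: not given in the sources used here, so reads of overlapping genes and close copies may be split or shared.

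CPM was the count over the column sum, times 1000000. A gene was kept at 1 CPM or more in 5 or more of the 21 ordered libraries, leaving out the 4 score genes and CGA, which stayed in the library totals. Counts of the 16 libraries were scaled with TMM factors (0.762 to 1.09) and tested with edgeR 4.0.16 in R 4.3.3 (quasi-likelihood test, robust, side as the only term, biological coefficient of variation 0.781), with Benjamini-Hochberg adjustment and a threshold of 0.05. SE is the log2 change over the square root of F. In counts simulated for this comparison (13279 genes, independent libraries), only genes with a mean above 5 CPM were changed. Of these, 84% of those changed by a log2 fold of 2 and 97% of those changed by 4 were recovered, with 4 false calls. The simulation held no library set apart from its side, so it does not give the recovery in the measured libraries. Libraries held 15005205 to 35544542 counts among the 21, so 1 CPM is at least 15.0 counts.

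Named genes are the 12 of smallest p in each direction, list members past the threshold, a fixed set of lineage genes, and the 10 most like the score. SOX7, LAMA1 and SOX2 of that set were not matched to an identifier and are not analysed here. Another gene of that set is not reported here. Members, lists and tests were chosen with earlier results of these data known. Alternatives were DESeq2 1.42.0, limma 3.58.1 (voom with quality weights), other scaling, no filter, added terms, other sides, and libraries left out. Those chosen after seeing the data were the fit without C 1 and TWSD 2 and the fit of T and WSD libraries alone with treatment as a term. Each library was left out in turn by plan, but the gene values without WSD 10 were singled out after its place was seen.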

Additional observations from a re-analysis of the deposited data

Results flagged for a closer look

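Among 149 sets of 8 values (named genes, score genes, scores and depths on each side), 18 had 1 library far from the other 7. The rule flags about 1 in 20 sets of independent, normally spread values. These sets share libraries, and many of their genes were chosen by the score or the sides, so that rate does not apply and the count is a description. WSD 10 stood apart among low-scoring libraries in SRPK2 (38.3 CPM, others 92.6 to 203), MFN1 (144 CPM, others 271 to 448), FGFR2 (43.4 CPM, others 122 to 233), BMP2 (11.8 CPM, others 0 to 2.02) and RSPO3 (25.6 CPM, others 0 to 0.949). TWSD 2 stood apart there in MVD (55.3 CPM, others 166 to 375), GATA6 (37.0 CPM, others 191 to 607), HNF4A (1.28 CPM, others 28.01 to 53.6), KLF17 (0 CPM, others 4.92 to 13.2) and PDGFRA (42.8 CPM, others 101 to 167). C 1 stood apart in LAMB1 (132 CPM, others 290 to 525) and APOE (24.4 CPM, others 101 to 194).

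Among high-scoring libraries WSD 6 stood apart with low NANOG (39.2 CPM, others 86.6 to 130), LARGE2 (53.5 CPM, others 102 to 175) and GRB7 (18.98 CPM, others 30.6 to 43.7). WSD 3 stood apart with high CER1 (15.6 CPM, others 0) and ACSS2 (210 CPM, others 90.2 to 126), and WSD 4 with high SOX17 (236 CPM, others 72.4 to 124).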

How the results depend on the processing

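The 33 genes higher and 36 lower became 39 and 37 under size factors from DESeq2, 24 and 30 under plain library totals, 54 and 36 with no filter on low counts, 30 and 40 with genes detected as a term, and 63 and 33 for the 6 highest against the 6 lowest. DESeq2 called 386 and 257, limma voom with quality weights 454 and 257, and the score as a continuous term over 21 libraries 786 and 1037. In the continuous fit the scores of C 1 (2.41) and TWSD 2 (1.52) lay far below the next, T 6 at 3.97. That fit was not run without C 1 and TWSD 2. Treatment as a term gave 0 and 0, T libraries alone 43 and 8, WSD libraries alone 0 and 0, and the fits without C 1 and TWSD 2 and of T and WSD libraries with treatment as a term 0 and 0. Leaving out 1 library gave 0 to 253 higher and 0 to 166 lower. In every one of these fits the 69 genes had their direction, and 68 and 67 of them were called by DESeq2 and by limma voom. The cause was not tested.

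The replicate block, with the number in the labels as a term, gave 0 and 0 (652 higher and 562 lower unadjusted). Deviations of 6 same-numbered pairs across the sides correlated at -0.02 to 0.08, and 2 of 11 libraries correlated best with their own number. Same-numbered libraries on the same side were not compared. Whether libraries with the same number share a parent or a batch was not tested.

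Of 2039 refits of named genes 27 turned in sign, in 8 genes that did not pass in the full comparison. HNF4A turned with limma voom (-0.0769), T alone (-0.60), WSD alone (-0.16), without TWSD 2 (-0.0317, where leaving out 1 library gave up to 0.282), without C 1 and TWSD 2 (-0.07358) and T and WSD with treatment (-0.38). OTX2 turned with treatment (0.009328), WSD alone (1.06) and T and WSD with treatment (0.31), and APOE with T alone (-0.26). TTR (-0.49) turned with limma voom (1.03), treatment (1.86), the continuous score (0.45), 6 against 6 (0.27), the replicate block (2.21), WSD alone (3.77), without T 8 (0.37) and without T 6 (0.14, where leaving out 1 library gave down to -0.935), and T and WSD with treatment (0.10). LEFTY2 turned with the block (-0.42), and NANOG with the block (-0.12), WSD alone (-0.16), without C 1 and TWSD 2 (-0.01688) and T and WSD with treatment (-0.0745). KLF17 turned with the continuous score (0.17) and T alone (0.05352), and GATA3 with WSD alone (-0.005549). The difference in total counts turned to -188480 for 6 against 6. The depth limits genes under about 1 CPM, such as TTR and CUBN.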
